A study of Caenorhabditis elegans with 24 samples.

Results

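This report concerns 10 *C. elegans* genes whose products build the oocyte surface and the eggshell or bring yolk into the oocyte: *cbd-1*, *egg-1*, *egg-2*, *egg-3*, *perm-2*, *perm-4*, *cpg-1*, *cpg-2*, *chs-1* and *rme-2*. They were chosen by name, with earlier results of these data known, and every probe that mapped to them was used. This gave 23 of the 43603 probes on the array and 10 of the 25616 genes. *cpg-1* had 7 probes, *egg-1* had 6, *perm-2* and *cpg-2* had 2 each, and the other 6 genes had 1 each. All 23 probes were above background on all 24 arrays, so no member was lost to the filter on dim probes. RNA came from whole worms, synchronized by hypochlorite and described in the paper as early adults. They were of the wild-type strain N2 or of *pqm-1(ok485)*, a mutant in the zinc finger transcription factor PQM-1. Worms were either untreated or exposed for 6 h or 20 h to 5 mM CoCl2, a chemical used to mimic hypoxia. The paper places both exposures at early adulthood and does not give the age at harvest for each. Each 2-color array carried a pair of these RNAs, and 4 comparisons were made at each time, with 3 replicate arrays in each. In the first pair, CoCl2-treated worms were set against untreated worms of the same strain, wild type or *pqm-1(ok485)*. In the second pair, the mutant was set against wild type, either without CoCl2 or with both strains treated. All values below are log2 ratios of the first-named RNA over the second. A gene was called different when its adjusted p in limma was below 0.01 over all genes tested, 22067 at 6 h and 23058 at 20 h.

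The nematode eggshell is assembled around the oocyte within minutes of fertilization, in layers laid down from the outside inward. The oocyte enters the spermatheca already covered by a vitelline layer that holds the chitin-binding protein CBD-1 and its partners PERM-2 and PERM-4. The LDL-receptor-repeat proteins EGG-1 and EGG-2 sit on the oocyte surface, where they are needed for sperm entry, and with the pseudophosphatase EGG-3 they belong to the cortical machinery that converts an oocyte into an embryo. The chitin synthase CHS-1 makes the chitin layer, and the chondroitin proteoglycans CPG-1 and CPG-2 form a layer inside it. RME-2, a receptor of the LDL receptor family, takes up the yolk lipoproteins that the intestine makes from vitellogenins. All of these transcripts are made in the maturing germline, so in RNA from whole worms fewer oocytes and less RNA per oocyte cannot be told apart.

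The libraries were checked first. The single *pqm-1* probe read -2.44, -2.27 and -2.10 on the untreated strain arrays of 6 h and -1.57, -1.36 and -1.43 on those of 20 h, with lower signal in *pqm-1(ok485)* throughout. On the arrays that compared the strains with CoCl2 it read 0.05, 0.10 and -0.27 at 6 h and 0.26, 0.12 and 0.18 at 20 h. On the arrays of CoCl2 over untreated *pqm-1(ok485)* it read 3, 2.69 and 2.37 at 6 h and 2.97, 3.77 and 2.72 at 20 h. In wild type the same comparison gave 0.56, 0.95 and 0.81 at 6 h and 1.89, 2.36 and 1.71 at 20 h. The source of the higher signal in the treated RNA labeled *pqm-1(ok485)* was not tested. It is not known here whether *ok485* removes the sequence this probe binds, so with CoCl2 the probe does not check the labels. The treated mutant RNA is the RNA labeled *pqm-1(ok485)*. The share of probes above background ranged from 69 to 92.1% (median 85.9%), and replicates of a comparison correlated at 0.678 to 0.961 over all genes. The dye of each RNA was taken from the strain and treatment fields, because the source names gave the opposite direction on 11 of the 24 arrays. On 1 array, replicate 2 of the *pqm-1(ok485)* response at 6 h, a source name gives wild type against the title. The deposited ratios of the authors' series table ran in the direction of the fields on all 24 arrays. With the dyes of the source names, no member was called in any of the 8 comparisons. The arrays lay on 7 slides, and at 6 h the wild-type response and the untreated strain comparison each lay alone on a slide, where slide and comparison cannot be told apart.

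Some members were among the brightest spots on the arrays. A saturated spot has reached the scanner's ceiling, and where both channels are saturated the ratio holds no measurement. Of the 552 member spots, 79 (14.3%) were saturated in at least 1 channel and 23 in both. These spots belonged to *rme-2* (12 of 24 spots), *perm-2* (13 of 48), *cpg-2* (12 of 48) and *cpg-1* (42 of 168). The genes *cbd-1*, *egg-1*, *egg-2*, *egg-3*, *perm-4* and *chs-1* had no saturated spot on any array. Most of the saturated spots lay in 2 comparisons, with 26 of 69 member spots in the wild-type response at 6 h and 26 of 69 in the treated strain comparison at 20 h.

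**Figure D1:**
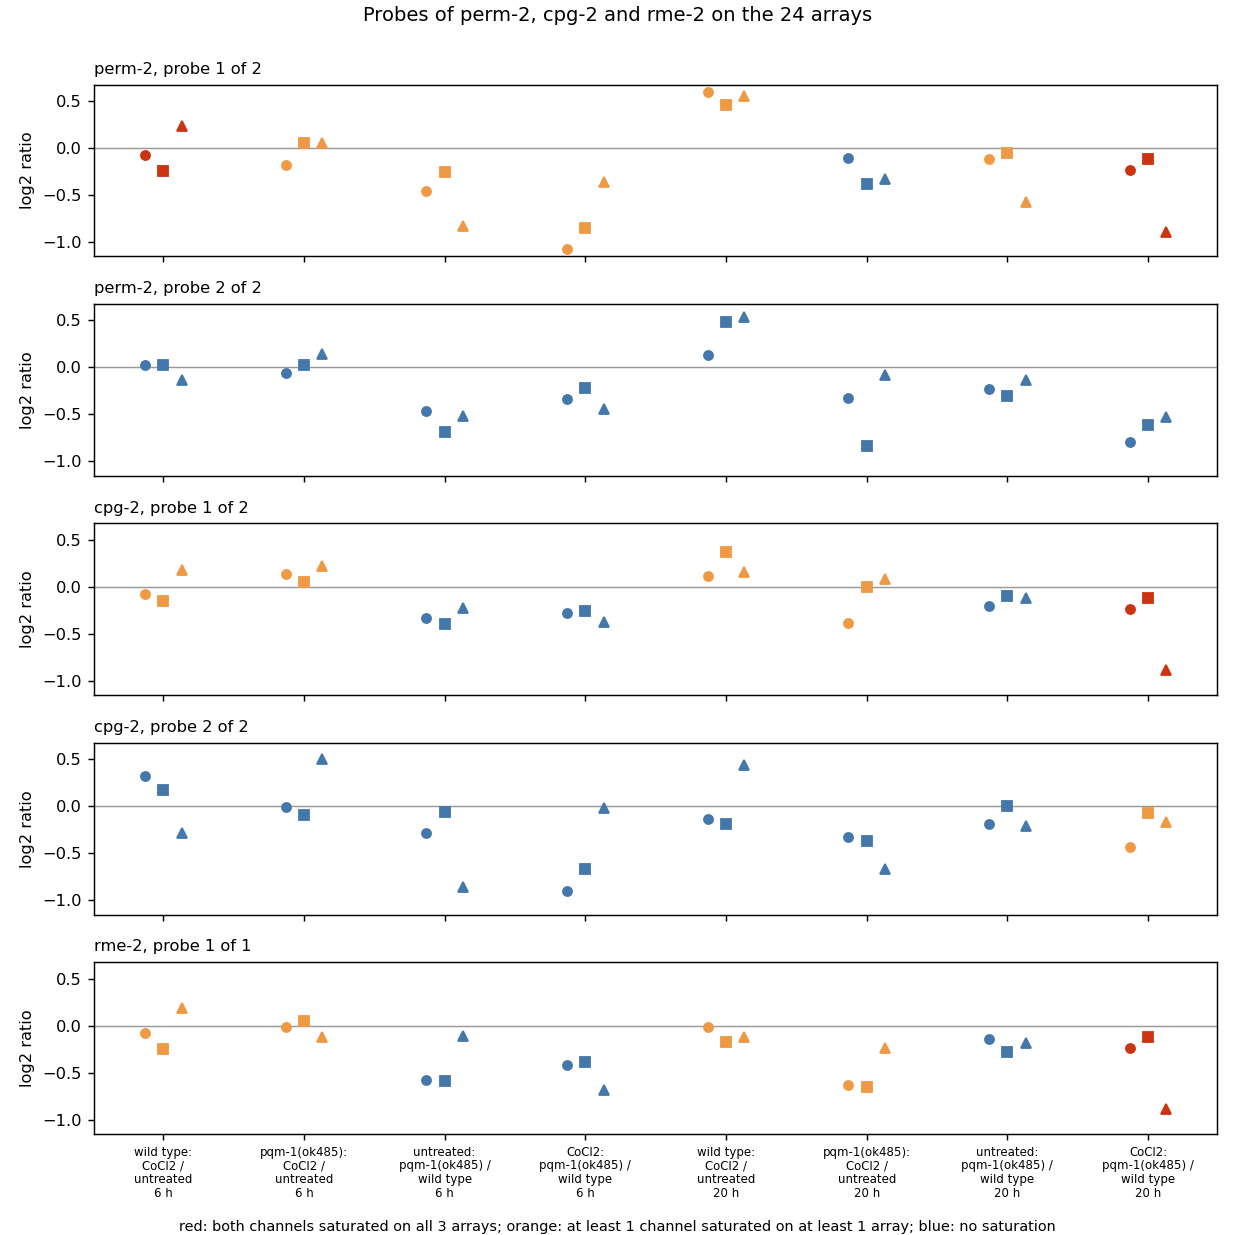
Log2 ratio of each probe of *perm-2*, *cpg-2* and *rme-2* (y axis) in the 8 comparisons (x axis), with circle, square and triangle for replicates 1, 2 and 3. In red, both channels were saturated on all 3 arrays; in orange, at least 1 channel was saturated on at least 1 array; blue probes had no saturation. In the last comparison the 3 red probes carry the same ratios, -0.24, -0.12 and -0.89.

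The first question at 20 h was how the genes responded to CoCl2 in each strain. In *pqm-1(ok485)*, 7 of the 10 genes fell and none rose, against 12.4% of all genes called lower. The median of the members was -0.51, that of all genes tested was -0.009, and 28 of the 30 member values (10 genes on 3 arrays) were below 0. The genes that fell covered sperm entry, egg activation, the vitelline layer, the chitin and proteoglycan layers and the yolk receptor, and their mean decreases ran from 21.2 to 32.7%.

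Among the surface proteins for sperm entry, *egg-1* read -0.36, -0.65 and -0.53 and *egg-2* read -0.54, -0.26 and -0.86 on replicates 1, 2 and 3. Every array was below 0, and the mean was -0.51 (SE 0.13, adjusted p = 0.00629) for *egg-1* and -0.55 (SE 0.094, adjusted p = 0.000423) for *egg-2*. The 6 probes of *egg-1* gave means between -0.59 and -0.39. They are close paralogs, and how far their probes cross-hybridize was not tested. *egg-3*, whose product is needed to place CHS-1 at the cortex, read -0.41, -0.11 and -0.58, all lower, with a mean of -0.37 (SE 0.0907, adjusted p = 0.00549).

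In the vitelline layer the genes differed. *perm-2* read -0.22, -0.61 and -0.21 and fell (mean -0.34, SE 0.0874, adjusted p = 0.00643), with no saturated spot here. When saturated spots of the other comparisons were left out, which changes the shared spread, its adjusted p was 0.0108. *perm-4* read 0.25, -0.15 and 0.05, on both sides of 0, with a mean of 0.05 and a 95% interval from -0.13 to 0.22. *cbd-1*, the layer's chitin-binding component, had the lowest mean of the 10 genes, -0.75, but its arrays were spread from -1.16 to -0.27 and it did not pass the test (adjusted p = 0.0231).

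For the layers inside the vitelline layer, the chitin synthase gene *chs-1* read -0.45, -0.61 and -0.66 and fell by 0.57 on the log2 scale (SE 0.154, adjusted p = 0.00893). *cpg-1* read -0.30, -0.63 and -0.68 and fell by 0.54 (SE 0.0901, adjusted p = 0.000395). All 7 of its probes were below 0, between -0.70 and -0.47, and without the saturated spots its mean was -0.58. Its partner *cpg-2* read -0.36, -0.18 and -0.29 and was not called (mean -0.28, adjusted p = 0.0157). Its 2 probes disagreed in size, at -0.45 and -0.10, and once saturated spots were left out the mean was -0.47 and the gene was called (adjusted p = 0.00375). The yolk receptor gene *rme-2* read -0.63, -0.65 and -0.24 and fell by 0.51 (SE 0.124, adjusted p = 0.00508). On 2 of its 3 arrays the untreated channel was at the ceiling, so those ratios can understate the difference, and without saturated spots too few arrays remained for a value.

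Several of these values rest on few arrays. With replicate 1, 2 or 3 of this comparison left out, 2, 3 and 4 genes were called, 2 when the spread was taken from these 3 arrays only, and 1 when slide was a fixed term. With median centering in place of loess, 3 were called, *egg-2*, *chs-1* and *rme-2*.

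**Figure D2:**
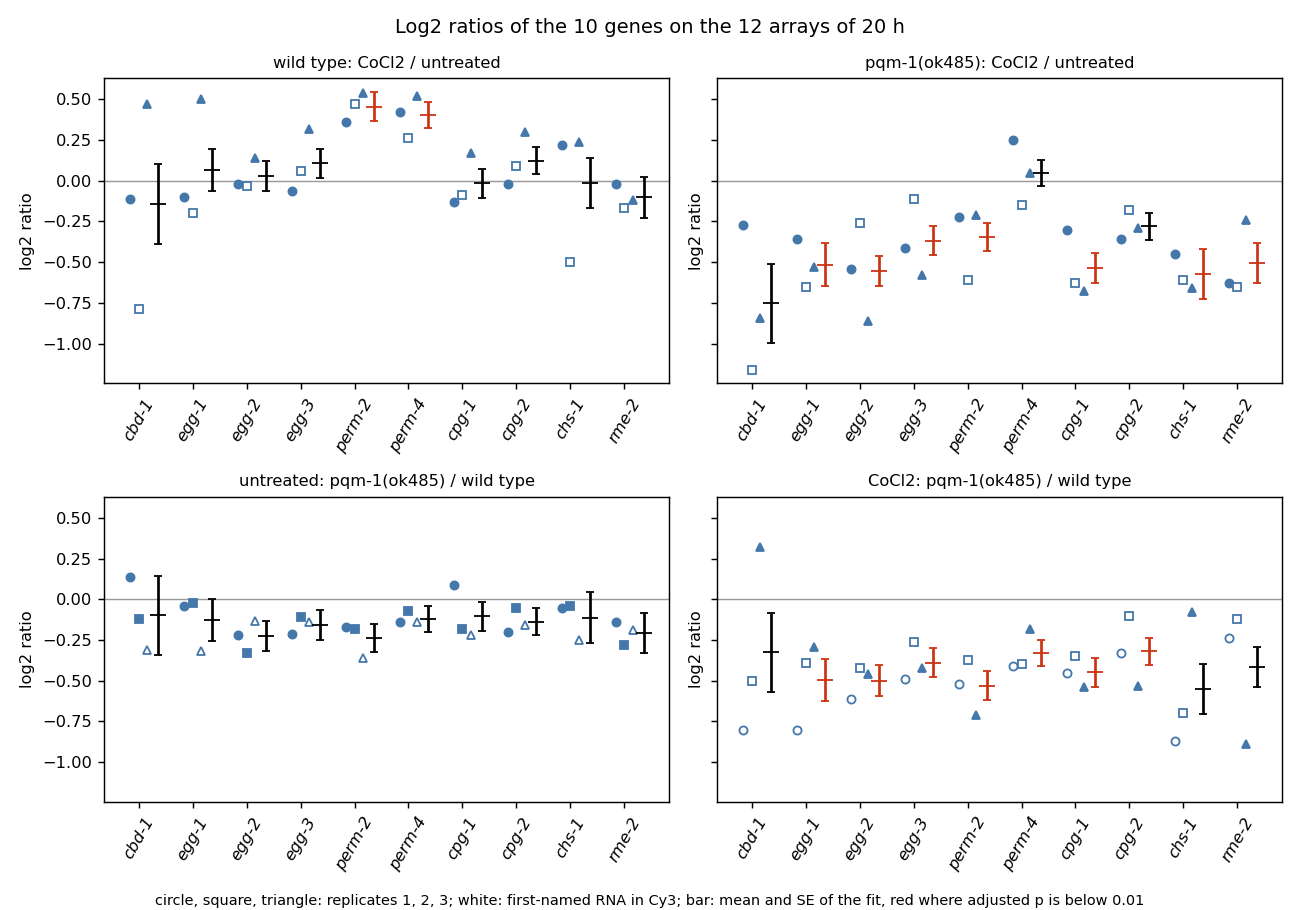
Log2 ratios of the 10 genes (x axis) on the 12 arrays of 20 h (y axis), in 1 panel per comparison. Circle, square and triangle are replicates 1, 2 and 3, white symbols have the first-named RNA in Cy3, and bars are the mean and SE of the limma fit, in red where the adjusted p was below 0.01. In *pqm-1(ok485)* 7 genes lie below 0 in red, and in wild type *perm-2* and *perm-4* lie above it.

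With 20 h of CoCl2 in wild type, 2 of the 10 genes rose, against 8.98% of all genes called higher. None fell, against 6.93% of all genes called lower, and the median of the members was 0.05. Both that rose encode vitelline layer proteins: *perm-2* read 0.36, 0.47 and 0.54 (mean 0.46, a fold of 1.37, SE 0.0874, adjusted p = 0.00223), and *perm-4* read 0.42, 0.26 and 0.52 (mean 0.40, a fold of 1.32, SE 0.0797, adjusted p = 0.00273). Every array was above 0 for both. Their partner *cbd-1* was scattered on both sides of 0, at -0.11, -0.79 and 0.47.

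The other wild-type means were between -0.14 (*cbd-1*) and 0.12 (*cpg-2*). The narrowest interval among them was that of *cpg-2*, from -0.06 to 0.31, and the widest that of *cbd-1*, from -0.67 to 0.39. For each of these 8 genes the mean of the mutant response lay below the lower end of the wild-type interval, and the difference between the strains has its own test below. For *rme-2* the untreated channel was at the ceiling on 2 of the 3 wild-type arrays, so a fall in wild type can be understated. Without saturated spots *rme-2* had no value. For *cbd-1* and *chs-1* (0.22, -0.50 and 0.24) the lowest value came from replicate 2, the array with the opposite dye order. With a dye term in the fit, the SE fell from 0.243 to 0.145 for *cbd-1* and from 0.154 to 0.103 for *chs-1*. The wild-type means were then -0.26 and -0.08, neither called, and *cbd-1* was called lower in the mutant response (-0.87, adjusted p = 0.000409).

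The 2 wild-type calls did not hold under every treatment of the arrays. Without saturated spots *perm-2* was 0.38 (adjusted p = 0.0113), and leaving out replicate 1, 2 or 3 left 1, 1 and 0 of the 10 genes called. Median centering moved *perm-2* to -0.05 and *perm-4* to -0.15, below 0.

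**Figure D3:**
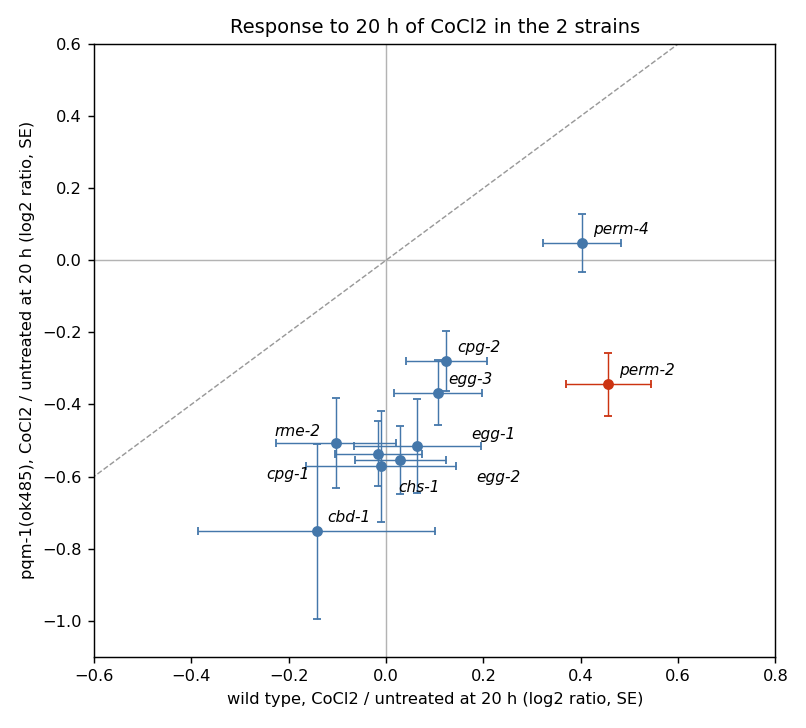
Log2 ratio of CoCl2 over untreated at 20 h in wild type (x axis) and in *pqm-1(ok485)* (y axis), with the mean of 3 arrays and its SE for each gene. The dashed line marks equal responses, and *perm-2*, in red, is the gene whose difference passed the test. All 10 genes lie below the line.

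The difference between the strains in their response was tested directly, as the mutant's log2 ratio minus that of wild type. All 10 genes were more negative in *pqm-1(ok485)*, by 0.35 to 0.80, with a median of -0.54 against 0.018 for all genes. Only *perm-2* passed the test, against 0.737% of all genes called lower: its response differed by -0.80 (SE 0.124, 95% interval -1.07 to -0.53, adjusted p = 0.00137). *perm-2* rose in wild type and fell in the mutant. On the slide that held 2 mutant arrays and 1 wild-type array, these read -0.22 and -0.61 against 0.47. With slide as a fixed term the difference was -0.88 and was not called, with median centering it was -0.61 and was not called, and without saturated spots it was -0.73 and was called (adjusted p = 0.00363).

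The other genes missed the threshold by different margins. *egg-2* differed by -0.58 (95% interval -0.88 to -0.29, adjusted p = 0.0104), *cpg-1* by -0.52 (adjusted p = 0.0151) and *egg-3* by -0.47 (adjusted p = 0.0255). *cbd-1* differed by -0.61, with an interval from -1.36 to 0.14. For 8 of the 10 genes every mutant array lay below every wild-type array, against 7.6% of all genes, and the exceptions were *cbd-1* and *chs-1*. Among the 8 is *rme-2*, with its untreated channel at the ceiling on 2 of 3 arrays in each strain.

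The same difference can be formed from the arrays that compared the strains directly, as the ratio with CoCl2 minus the ratio without it. From that pair no member was called (2 had an unadjusted p below 0.05), and *perm-2* was -0.29 (adjusted p = 0.104). On the treated arrays the brighter probe of *perm-2*, 1 of 2 probes of *cpg-2* and the only probe of *rme-2* were saturated in both channels. Without such spots *rme-2* had no value, the other 9 genes were negative, from -0.09 (*cpg-2*) to -0.44 (*chs-1*), and *perm-2* was -0.41.

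With CoCl2 at 20 h, *pqm-1(ok485)* had lower ratios than wild type for 7 of the 10 genes and higher for none, against 13.6% of all genes called lower. With spots saturated in both channels left out, *rme-2* had no value, the median of the other 9 genes was -0.47, and 26 of their 27 array values were below 0. Of the sperm entry genes, *egg-1* read -0.80, -0.39 and -0.29 (mean -0.49, SE 0.13, adjusted p = 0.00763) and *egg-2* read -0.61, -0.42 and -0.46 (mean -0.50, SE 0.094, adjusted p = 0.000904). All values of *egg-2* lay close together, and neither gene had a saturated spot. *egg-3* read -0.49, -0.26 and -0.42 and was also lower (mean -0.39, SE 0.0907, adjusted p = 0.00372).

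In the vitelline layer, *perm-4* read -0.41, -0.40 and -0.18 and was lower in the mutant, by 20.4% (adjusted p = 0.0047). For *perm-2* only 1 of 2 probes was measured, since the other was saturated in both channels on all 3 arrays. The measured probe read -0.79, -0.61 and -0.53, and its mean of -0.64 passed the test (adjusted p = 0.000157). With both probes the mean was -0.53. *cbd-1* read -0.80, -0.50 and 0.32, was not called, and had an interval from -0.86 to 0.21.

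Saturation mattered most for the inner layer and the yolk receptor. *cpg-1* read -0.45, -0.35 and -0.54 (adjusted p = 0.00144), with 16 of its 21 spots saturated in at least 1 channel, and was -0.53 without them. *cpg-2* was called on all spots, at -0.32 (adjusted p = 0.00713). Of its 6 spots 3 were saturated in both channels and 1 more in 1 channel. The 2 spots left had a mean of -0.25, which was not called (adjusted p = 0.13). The only probe of *rme-2* was saturated in both channels on all 3 arrays, so its level in the treated strains was not measured at 20 h. The ratios printed for the 3 such probes, of *perm-2*, *cpg-2* and *rme-2*, were identical, at -0.24, -0.12 and -0.89, and hold no measurement. *chs-1*, with no saturated spot, read -0.87, -0.70 and -0.08 and just missed the threshold (mean -0.55, adjusted p = 0.0107).

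Leaving out replicate 1 of this comparison left 1 gene called, leaving out replicate 3 left 4, and with median centering or with slide as a fixed term none was called. All 3 arrays shared a slide, which also held replicate 3 of the mutant's response.

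Without CoCl2 the strains differed little in these genes at 20 h. No member was called by limma, against 4.35% of all genes in either direction, or by SAM, and 2 had an unadjusted p below 0.05, although all 10 means were below 0, from -0.24 (*perm-2*) to -0.10 (*cbd-1*), with a median of -0.13. *perm-2* read -0.17, -0.18 and -0.36 (adjusted p = 0.144) and *egg-2* read -0.22, -0.33 and -0.13 (adjusted p = 0.213), so both were lower on every array. The lower end of the *egg-2* interval was -0.43, and that of *rme-2*, which read -0.14, -0.28 and -0.19 with no saturated spot, was -0.48.

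At 6 h, CoCl2 left the members near 0 in each strain. In wild type no member was called, against 4.24% of all genes in either direction, and the means of the genes other than *rme-2* ran from -0.03 (*perm-2*) to 0.18 (*egg-1*). The only probe of *rme-2* was saturated in both channels on 2 of these 3 arrays and in the untreated channel on all 3, so it was hardly measured here. In *pqm-1(ok485)* none was called either, against 10.9% of all genes, and the means ran from -0.35 (*cbd-1*) to 0.19 (*perm-4*). *cbd-1* was the only gene below 0 on all 3 mutant arrays, at -0.49, -0.33 and -0.24 (adjusted p = 0.187). *perm-4* read 0.13, 0.21 and 0.25 there (adjusted p = 0.182).

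In both responses at 6 h 0 members had an unadjusted p below 0.05 and 0 were called by SAM. The brighter *perm-2* probe was saturated in both channels on all 3 wild-type arrays. At 6 h the difference was formed from the strain arrays, as the treated minus the untreated strain ratio, which is the pair of comparisons the methods use at that time. It passed the test for no member (0 with an unadjusted p below 0.05, 0 by SAM), against 3.05% of all genes called in either direction. The intervals of these differences were wide, with *perm-2* at -0.01 (95% interval -0.23 to 0.21), *egg-2* at 0.11 (-0.25 to 0.47) and *cbd-1* at -0.43 (-0.94 to 0.08). Formed at 6 h as at 20 h, from the mutant response minus the wild-type response, the values were 0.03 for *perm-2*, -0.02 for *egg-2* and -0.47 for *cbd-1*, and no member was called.

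Members were called at 6 h in the strain comparisons. In untreated worms 1 of 10 genes was lower in *pqm-1(ok485)*, against 3.24% of all genes called lower, while all 10 means were negative (median -0.36). The called gene was *perm-2*, at -0.46, -0.48 and -0.67 (mean -0.54, SE 0.0706, adjusted p = 0.000129), a decrease of 31.1%. *egg-2* read -0.68, -0.66 and -0.09 and *rme-2* read -0.58, -0.59 and -0.11. For both, replicates 1 and 2 were low and replicate 3, with the opposite dye order, was near 0, and neither was called (adjusted p = 0.01 after rounding and 0.0107). *cbd-1* split the other way, at 0.02, 0.12 and -0.77.

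With CoCl2 for 6 h, 5 of the 10 genes were lower in *pqm-1(ok485)* than in wild type and none was higher, against 5.42% of all genes called lower. The median was -0.44. *cpg-1* read -0.75, -0.69 and -0.40 (mean -0.61, SE 0.101, adjusted p = 0.000615), with its 7 probes between -0.67 and -0.51. *perm-2* read -0.71, -0.53 and -0.40 (mean -0.55, SE 0.0706, adjusted p = 8.47e-05). Both were lower on every array.

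The yolk receptor gene *rme-2*, free of saturation in this comparison, read -0.42, -0.39 and -0.68 and was lower by 29% (SE 0.104 on the log2 scale, adjusted p = 0.00314). *cpg-2* read -0.59, -0.46 and -0.20 (adjusted p = 0.00405), and *chs-1* read -0.22, -0.44 and -0.38 (adjusted p = 0.00356). Of the genes not called, *cbd-1* had the lowest mean, -0.64 (arrays -0.71, -0.90 and -0.31, adjusted p = 0.011). *egg-3* and *perm-4* were close to 0, at -0.13 (95% interval -0.37 to 0.10) and -0.07 (-0.27 to 0.12).

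Dye order moved with the replicate values in these comparisons. With a dye term in the fit, 9 of 10 genes were called lower in untreated and 8 of 10 in treated *pqm-1(ok485)* at 6 h. In the treated comparison leaving out replicate 1 left 3 genes called and leaving out replicate 2 left 2, without saturated spots 3 were called, in the untreated one leaving out replicate 3 gave 4, and with median centering or SAM none was called in either.

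**Figure D4:**
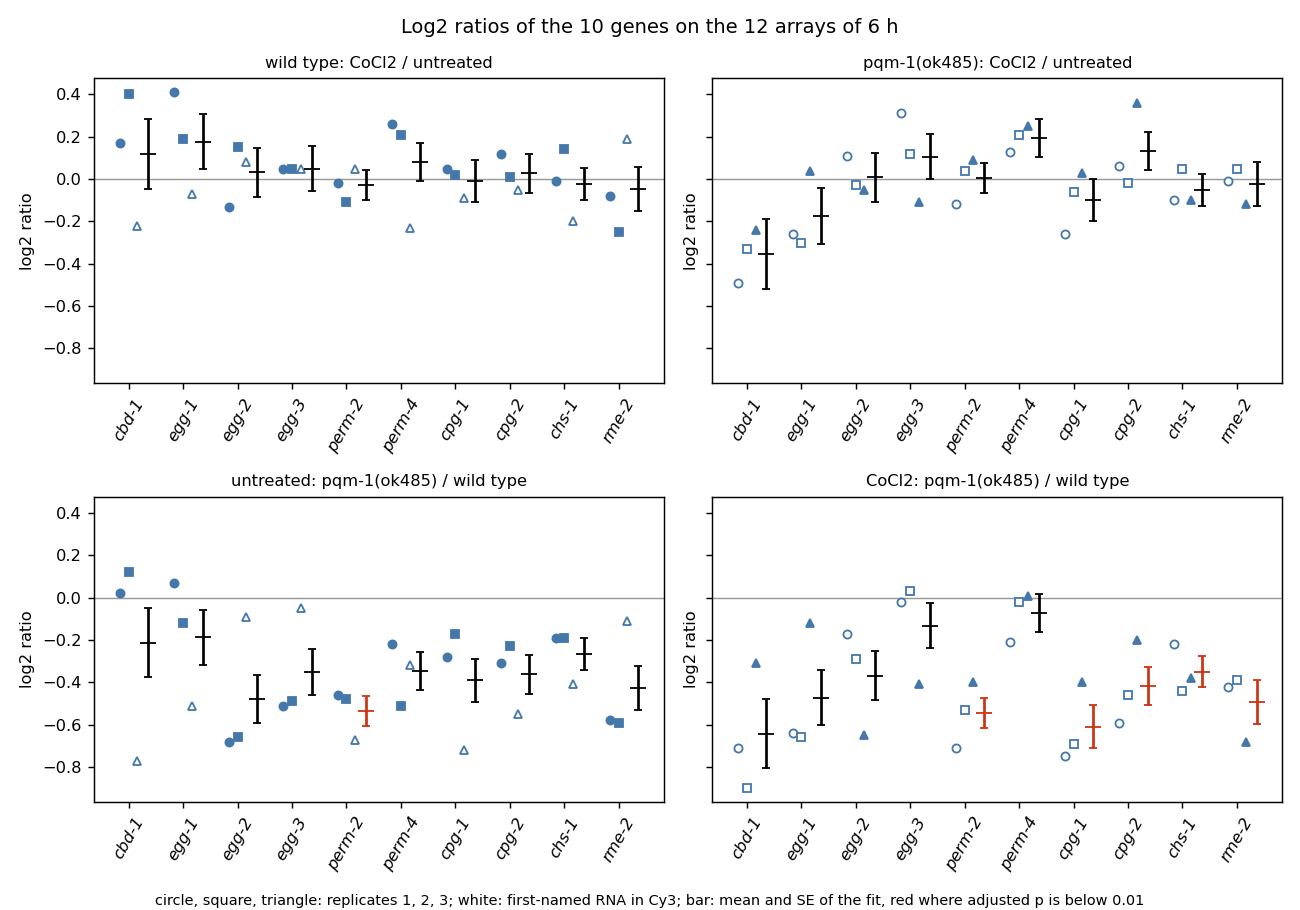
Log2 ratios of the 10 genes (x axis) on the 12 arrays of 6 h (y axis), drawn as in the plot of 20 h values. The members lie around 0 in both plots of CoCl2 over untreated, and below 0 in both plots of *pqm-1(ok485)* over wild type, where *perm-2* is red in each.

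Whether a response changed from 6 h to 20 h was tested over 21811 genes, with all 24 arrays in a single model. Time of exposure can go with worm age at harvest here, and the part of age was not tested. The wild-type response of *perm-2* was higher at 20 h than at 6 h by 0.48 (SE 0.114, adjusted p = 0.00737), the only member called, against 3.37% of all genes called higher. In *pqm-1(ok485)* the response of all 10 genes was lower at 20 h (median -0.43), and *egg-2* alone was called, against 2.83% of all genes called lower (-0.56, SE 0.155, adjusted p = 0.00991). *cpg-2* (-0.41, adjusted p = 0.0198) and *egg-3* (-0.47, adjusted p = 0.021) did not pass.

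For the strain difference no member changed with time beyond the threshold, by limma or SAM, and 1 had an unadjusted p below 0.05 in each condition. In untreated worms none was called, against 0.243% of all genes, and the 10 values lay between 0.06 and 0.30. With CoCl2 none was called, against 18.3% of all genes, and they lay between -0.26 and 0.32, with *rme-2* not measured at 20 h. The largest of these in untreated worms was *perm-2*, at 0.30 (95% interval 0.06 to 0.54, adjusted p = 0.35).

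Other genes that work with the members were followed as whole lists. Of 17 partners in eggshell synthesis and egg activation, 7 fell with CoCl2 at 20 h in *pqm-1(ok485)* and none rose (median -0.44), against 12.4% of all genes called lower. Those with the largest decreases were *pod-2*, which encodes acetyl-CoA carboxylase of fatty acid synthesis (-0.75), and *egg-5*, a pseudophosphatase acting with EGG-3 (-0.61). In wild type 1 of the 17 fell, *cyp-31A2*, a cytochrome P450 of the eggshell's lipid barrier (-0.36), against 6.93% of all genes. With CoCl2 at 20 h, 6 were lower in the mutant than in wild type (13.6% of all genes), among them *cpg-3*, an eggshell proteoglycan (-0.85), and *gna-2*, which makes the amino sugar used for chitin (-0.61). At 6 h with CoCl2, 3 were lower (5.42% of all genes), among them *perm-1* (-0.85) and *dgtr-1*, an acyltransferase of the permeability barrier (-0.33).

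The remaining partner calls were few. At 6 h, *pod-2* (-0.68) and *fasn-1*, the fatty acid synthase gene (-0.57), fell with CoCl2 in *pqm-1(ok485)*, and in untreated mutants *fasn-1* was higher (0.40) and *cpg-3* lower (-0.43) than in wild type. None of the 17 was called in the wild-type response at 6 h or between untreated strains at 20 h. *egg-4* with *egg-5* and *cyp-31A2* with *cyp-31A3* are close paralogs, and cross-hybridization was not tested.

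A list of 16 regulators of oocyte and maternal RNA was also followed. Of the 15 tested at 20 h, 11 fell with CoCl2 in *pqm-1(ok485)*, none in wild type, and 7 were lower in the treated mutant. The shares of all genes called lower were 12.4, 6.93 and 13.6% in these comparisons. The decreases in the mutant were led by *cgh-1*, an RNA helicase of oocyte granules (-0.73), and *mex-5*, a CCCH zinc finger protein (-0.68), and the medians were -0.50 in the mutant and -0.09 in wild type. In the treated strain comparison *spn-4* (-0.82) and *puf-5* (-0.60), which encode RNA-binding proteins, were lowest. At 6 h, 7 of 16 were lower in treated *pqm-1(ok485)* (5.42% of all genes), among them *oma-2*, a regulator of oocyte maturation (-0.47), and *nos-2* (-0.44), and 1, *mei-1*, in untreated mutants (-0.31).

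Genes of yolk uptake other than *rme-2* were followed as a list of 8 endocytosis genes. None of the 8 was called in the CoCl2 response at 20 h in either strain. Of all genes, 15.9% were called in either direction in wild type and 35.2% in *pqm-1(ok485)*, and the medians of the 8 were -0.04 and -0.05. *rab-7*, a GTPase of late endosomes, was lower in the treated mutant at 20 h (-0.48) and at 6 h (-0.31), where *chc-1*, encoding clathrin heavy chain, was lower too (-0.43). That is 1 of 8 at 20 h and 2 of 8 at 6 h, against 13.6 and 5.42% of all genes called lower. *rme-1*, of the recycling endosome, fell with CoCl2 at 6 h in *pqm-1(ok485)* (-0.49), against 4.83% of all genes. The vitellogenins, the cargo of RME-2 made in the intestine, were also followed. All 5 that were tested fell at 20 h in each strain, against 6.93% of all genes in wild type and 12.4% in the mutant. The medians were -2.12 in wild type and -3.09 in the mutant. From these responses the difference between the strains was called for none of the 5, with a median of -0.09 (from -1.06 to 0.07). From the arrays that compared the strains directly it was also called for none, with a median of -1.68 (from -2.04 to -0.55). With CoCl2, 4 of the 5 were lower in the mutant than in wild type at 20 h (median -2.01). At 6 h all 5 were lower (median -1.81), and the difference from the strain arrays was called lower for 2. At 20 h, vitellogenin probes were saturated in at least 1 channel on 15 of 27 spots in the wild-type response and 22 of 27 in the mutant response. In the treated strain comparison at 20 h the number was 8 of 27.

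Sperm markers were called higher in 6 of the 8 comparisons and lower in none. Of the 26 tested at 20 h, all of them genes of major sperm proteins or of sperm function, 26 rose with CoCl2 in *pqm-1(ok485)* (median 2.68) and 19 in wild type (median 1.83), against 22.8 and 8.98% of all genes called higher. They were also higher in *pqm-1(ok485)* than in wild type with CoCl2 (25 of 26, median 1.53, against 23.7% of all genes) and without it (20 of 26, median 2.28, against 3.1%). Of 120 sperm marker spots, 81 were saturated in at least 1 channel in the treated strain comparison and 23 in the mutant response at 20 h. How far probes of the major sperm protein genes cross-hybridize was not tested. At 6 h, 23 of 25 were higher in the mutant both untreated (median 3.28) and treated (median 3.23), against 10.5 and 14.2% of all genes, and none was called in either CoCl2 response (medians 0.23 and 0.19). In the *pqm-1(ok485)* response at 20 h, 26 sperm markers rose and 7 members fell, with a members' median of -0.51. In the wild-type response at 20 h, 19 sperm markers rose, *perm-2* and *perm-4* rose and no member fell, with a members' median of 0.05. The paper reports slower development of *pqm-1* mutants than of wild type, and for that reason synchronized worms as larvae for its adult assays. For the array RNA it gives synchronization by hypochlorite. Strain and stage can therefore differ together on the strain arrays. The part of germline composition or developmental stage in the members' values was not tested.

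**Figure D5:**
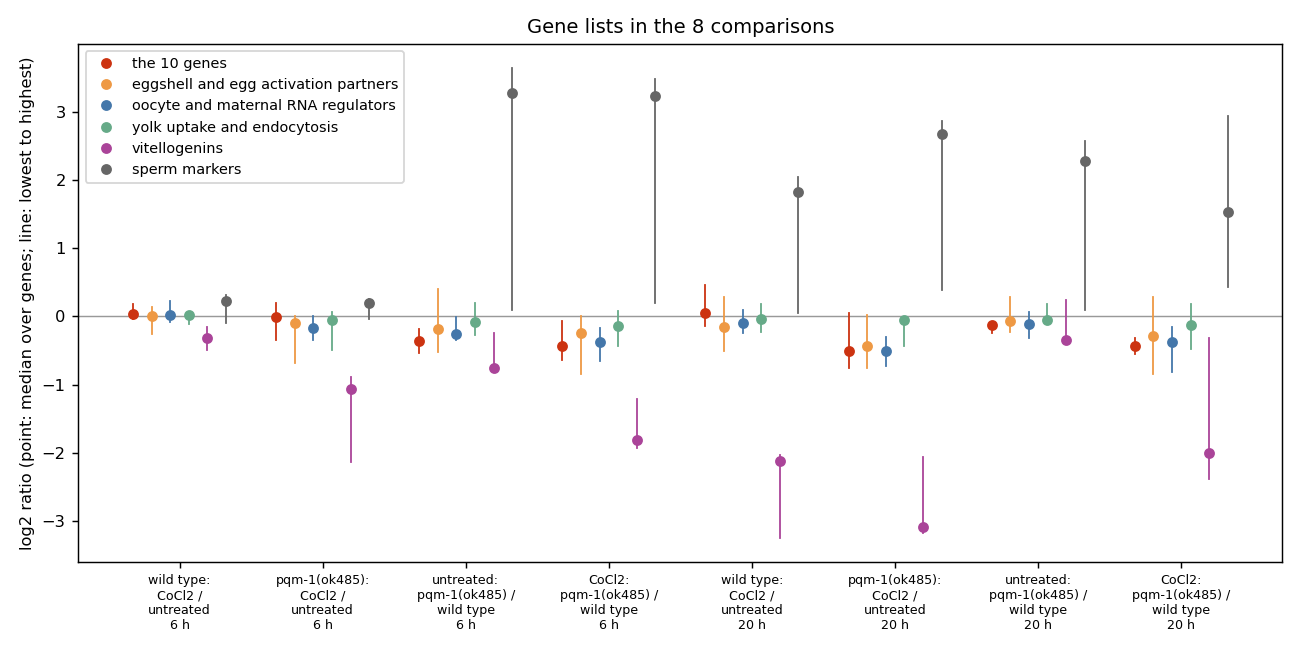
Log2 ratios of 6 gene lists (colors) in the 8 comparisons (x axis). Points are medians over the genes of a list and lines run from its lowest to its highest gene (y axis). The 10 genes (red) lie close to the oocyte regulators (blue) in each comparison, with the vitellogenins (purple) below and the sperm markers (gray) above.

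Over the 24 arrays the members tended to move together, as a description of these arrays, which share RNAs, dyes and slides. Pairwise correlations of the log2 ratios ran from -0.018 to 0.925, with a median of 0.522, and the highest was between *egg-2* and *egg-3*. With the mean of the other members, *cpg-1* correlated most closely (0.849) and *rme-2*, with its saturated spots included, least (0.482), and *cbd-1* was also low (0.511). Among 21319 other genes, the named ones most like the members' mean were *inx-8* (0.872), a gap junction gene of the gonadal sheath, *pqn-65* (0.872), *acs-13* (0.869), *ekl-5* (0.867), *gln-6* (0.851), *gpd-4* (0.847), *rfc-3* (0.847), *mex-3* (0.846), *zip-11* (0.842) and *ptr-2* (0.839). *mex-3* encodes an RNA-binding protein of the oocyte and early embryo, and it read 0.06 in wild type and -0.35 in *pqm-1(ok485)* in the CoCl2 response at 20 h.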

How the data were processed

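The deposited scanner files hold the intensity of each spot in Cy3 and Cy5, extracted by the authors with Agilent Feature Extraction 12.0.2.2. They also hold a deposited log10 ratio, and the authors' series table holds log2 ratios of the same arrays; both were used only as alternatives. Intensities were background corrected here (normexp, offset 50), normalized within arrays by loess, and averaged over the probes of a gene in limma 3.58.1 (R 4.3.3). Of 43603 probes, 34513 were matched to a gene. Genes measured on fewer than 2 arrays of any comparison were not tested. The 12 arrays of a time entered 1 fit of 4 means, which left 8 residual degrees of freedom, with Benjamini-Hochberg adjusted p below 0.01; the fit was tested on simulated data. The 10 members were all named, other lists gave counts and up to 2 called genes each way, and the 10 named genes most correlated with the members' mean were given. Members and lists were chosen with earlier results of these data known. Replicates are labeled only by number, so p-values measure the spread between these arrays, whose number limits the precision. 3 arrays labeled 1b were taken as replicate 1. Alternatives covered background, normalization, filters, saturation, dye, slide, replicate number and the studied contrasts.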

Additional observations from a re-analysis of the deposited data

Results flagged for a closer look

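The response of *perm-2* to 20 h of CoCl2 differed between the strains, by -0.8 in *pqm-1(ok485)* minus wild type (adjusted p = 0.00137 in limma), with 3 of 3 wild-type arrays above 0 and 3 of 3 mutant arrays below 0. From the arrays that compared the strains directly the difference was -0.29. The wild-type response of *perm-2* differed between 6 h and 20 h, by 0.48 (adjusted p = 0.00737 in limma), with all 3 arrays above 0 at 20 h. At 6 h its brighter probe was saturated in both channels, and without such spots 1 of 3 arrays was below 0 (mean -0.02). Without saturated spots the change with time was 0.41 and was not called. The *pqm-1(ok485)* response of *egg-2* differed between the times, by -0.56 (adjusted p = 0.00991), with 3 of 3 arrays below 0 at 20 h.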

How the results depend on the processing

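Counts of members called changed by over 1.5 times under these alternatives. In the untreated strain comparison at 6 h (1 called), 0 were called with median centering, SAM or dyes from the source names, 4 with the scanner's ratio or the series table, 3 with a strict dim filter or replicate block, 2 probe by probe, 9 with a dye term, 8 with slide as a random block or adjusted p below 0.05, and 7 in a loop model. In the treated strain comparison at 6 h (5), 3 were called with no offset or without saturated spots, 8 with a dye term, random slide block, loop model or adjusted p below 0.05, and 0 with median centering, fixed slide, SAM or source-name dyes. In the wild-type response at 20 h (2), 0 were called with no offset, median centering, only the arrays compared or source-name dyes, and 1 with the scanner's ratio, series table, probe by probe, without saturated spots, fixed slide, loop model or SAM. In the mutant response at 20 h (7), 4 were called with no offset, 3 with median centering or random slide, 2 with only the arrays compared, 1 with fixed slide and 0 with source-name dyes. In the treated strain comparison at 20 h (7), 3 were called with no offset or random slide, 4 with only the arrays compared, and 0 with median centering, fixed slide or source-name dyes. The difference in response at 20 h (1) gave 0 with median centering, only the arrays compared, fixed slide, SAM or the other pair of comparisons, 2 with a strict filter, dye term or replicate block, 3 in the loop model and 5 at adjusted p below 0.05. For the wild-type change with time (1), 0 were called with no offset, median centering, the scanner's ratio, series table, probe by probe, without saturated spots, only the arrays compared, fixed slide or loop model. For the mutant change with time (1), 0 were called with no offset, median centering, no dim filter, probe by probe, random slide or SAM, 5 with a dye term, 2 in the loop model and 7 at adjusted p below 0.05. With median centering *perm-2* (-0.053) and *perm-4* (-0.145) in the wild-type response at 20 h, and the change of *perm-2* with time (-0.13), reversed; the cause was not tested.

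Leaving out an array gave 1 to 4 calls in the untreated and 2 to 5 in the treated strain comparison at 6 h, 0 to 1 in the wild-type response, 2 to 4 in the mutant response and 1 to 6 in the treated strain comparison at 20 h, 1 to 3 for the difference in response, and 0 to 2 and 0 to 0 for the mutant and wild-type changes with time. Of the members' called values under the alternatives other than source-name dyes, 286 kept direction and side of the threshold, 167 kept direction only, and 3 reversed. Source-name dyes, which turn the ratio round on 11 of the 24 arrays, were left out of this tally. Reversals of single genes under them were not counted. Replicate numbers were not taken to pair the arrays, since nothing in the labels ties them and not every same-numbered pair was alike. Same-numbered deviations correlated at -0.67 to 0.404 at 6 h (6 of 18 above 0.1) and -0.342 to 0.418 at 20 h (7 of 18), and 0 and 6 of 12 arrays were most like their own number. At 6 h the 6 were the pairs of the same dye order, and 11 of the 12 pairs of opposite order were below 0, so number and dye order cannot be told apart there. The replicate block moved the counts only as given above. Slide as a fixed term could not be fitted for comparisons alone on a slide at 6 h, nor for 3 of the 4 changes with time.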

Other observations

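Markers of other cells of the gonad and of the embryo were followed too. Of 12 genes of germline granules and meiosis, at most 1 was called in each direction in any of the 8 comparisons, and the medians at 20 h were -0.10 in the wild-type response and -0.04 in the *pqm-1(ok485)* response. A list of 12 early zygotic genes was followed for embryos held in the worm, and their expression outside embryos was not tested. With CoCl2 at 20 h, 2 of the 12 fell in wild type, and 4 fell and 1 rose in *pqm-1(ok485)*. In the treated mutant at 20 h, 6 were lower and 1 higher than in wild type. The gene that rose (0.50) and the gene that was higher (0.66) were both *elt-7*. The shares of all genes called lower were 6.93, 12.4 and 13.6%. In the untreated mutant at 20 h 3 were lower, *sdz-28* (-1.12), *pes-10* (-0.73) and *sdz-38* (-0.41), against 1.26% of all genes. Of 6 genes of the gonadal sheath and spermatheca, *inx-8* was lower in *pqm-1(ok485)* without CoCl2 at 6 h (-0.40), with CoCl2 at 6 h (-0.41) and with CoCl2 at 20 h (-0.80), and it fell with CoCl2 at 20 h in the mutant (-0.41). *ipp-5* was called the other way, higher in the treated mutant at 6 h (0.28) and 20 h (0.33) and with CoCl2 at 20 h in the mutant (0.42). The list's medians in these comparisons lay between 0.01 and 0.12, and no gene of this list was called in the wild-type response.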
